A study of Homo sapiens with 16 samples.

Results

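The respiratory chain and ATP synthase genes were followed in H1 human embryonic stem (huES) cells that were driven toward definitive endoderm with or without the transcription factor GATA6. Members were all genes whose array annotation symbol begins with NDUF, UQCR, ATP5 or COX plus a digit, together with SDHA, SDHB, SDHC and SDHD, and each gene was read from its single-gene probe set with the highest mean over the 16 arrays. The rule gave 101 of the 18132 genes measured, and no measured value other than this mean entered the choice. Complex I contributed 44 members, complex II 3, complex III 8, complex IV 27 and ATP synthase, also called complex V, 19. By role, 20 were core subunits, 63 accessory subunits, 17 assembly factors that the rule also catches, and 1 an inhibitor protein. SDHB and UQCRFS1 were not analysed here. COX3 was the only member encoded in mitochondrial DNA.

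The 16 arrays fell into 8 groups of 2. The rescue cells carried a short hairpin RNA (shRNA) against the 3′ untranslated region of GATA6 together with a FLAG-tagged, shRNA-resistant human GATA6 of the short isoform that doxycycline switches on, and they received 60 ng/mL doxycycline for 96 hours before collection on day 5. The GATA6-depleted cells carried a lentiviral GATA6 shRNA and were collected on days 3, 4 and 5, and the control cells carried the empty vector and were collected on days 3, 4 and 5 and as undifferentiated cells on day 0. All differentiating cells, rescue included, received activin A at 50 ng/mL with BMP4 at 10 ng/mL and FGF2 at 20 ng/mL for 2 days, then activin A alone for 1, 2 or 3 days. No depleted cells of day 0 were analysed here, the lines were polyclonal, and cultures were measured in bulk, so that fewer cells of a type and less RNA per cell cannot be told apart. The study describes loss of cells by apoptosis in depleted cultures.

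As background, complexes I and II pass electrons from NADH and from succinate to ubiquinone, complex III passes them on to cytochrome c, and complex IV, cytochrome c oxidase, passes them to oxygen. Complexes I, III and IV pump protons across the inner mitochondrial membrane, and ATP synthase lets the protons back through its c ring to make ATP. Core subunits carry out the chemistry, though not every subunit counted as core here does. Accessory subunits surround the core, and assembly factors build the complex without staying in it. Pluripotent stem cells are known for drawing much of their ATP from glucose breakdown, and the respiratory genes are classically described as moving together under the factors NRF1 and GABP.

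GATA6 itself read 9.76 and 9.90 log2 in depleted cells against 11.44 and 11.60 in control cells on day 3, 7.92 and 6.62 against 11.44 and 11.53 on day 4, and 6.37 and 6.62 against 11.56 and 11.49 on day 5. Rescue cells read 8.43 and 8.31, and day 0 control cells 1.72 and 1.86. The study reports overexpression of GATA6 in the rescue line under doxycycline. Whether the GATA6 probe set detects RNA of the transgene was not examined, so the rescue values may not give total GATA6. Levels throughout are log2 values of the robust multi-array average (RMA), and the lower quartile of all genes lay between 3.36 and 3.50 on every array. The mean log2 level of 6 definitive endoderm markers, the cell type the cultures were driven toward, was 8.87 and 8.91 on the rescue arrays, 5.54 and 5.56 on the depleted day 5 arrays, and 9.46 and 9.81 on the control day 5 arrays. The mean of 5 pluripotency markers was 6.25 and 6.30 on the rescue arrays, 9.83 and 9.89 on the depleted and 8.53 and 8.81 on the control arrays of day 5, and 10.21 and 10.40 on those of day 0. The bacterial hybridisation control BioB also stood apart, at 7.26 and 7.29 in the rescue pair and 7.66 and 7.74 in the day 0 pair, against 8.39 to 8.96 on the other 12 arrays, and the 2 rescue arrays were closer to each other (SD 0.105 over genes) than any other pair (0.163 to 0.245). Differences that involve the rescue or day 0 groups cannot be told apart from whatever set those arrays apart.

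As a whole the members varied over a smaller range than all genes. Over the 8 groups the median distance between a member's highest and lowest group mean was 0.40 on the log2 scale, against 0.65 over all genes. It was below 0.5 in 63 of the 101 members, and it exceeded 1 in 11, which is 10.9% of members against 30.8% of all genes. In limma's F test over the groups, called at a Benjamini-Hochberg adjusted p below 0.05, 42 of the 101 members differed among the 8 groups, against 55.0% of all genes. This order depended on the moderation of the spread, since with trended and robust moderation 66 members (65.3%) differed, against 55.6% of all genes. The share was uneven by role. It was 12 of 17 among assembly factors, 11 of 20 among core subunits and 18 of 63 among accessory subunits. Complex I assembly factors varied in 7 of 8 cases, and all 3 complex II members varied.

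**Figure D1:**
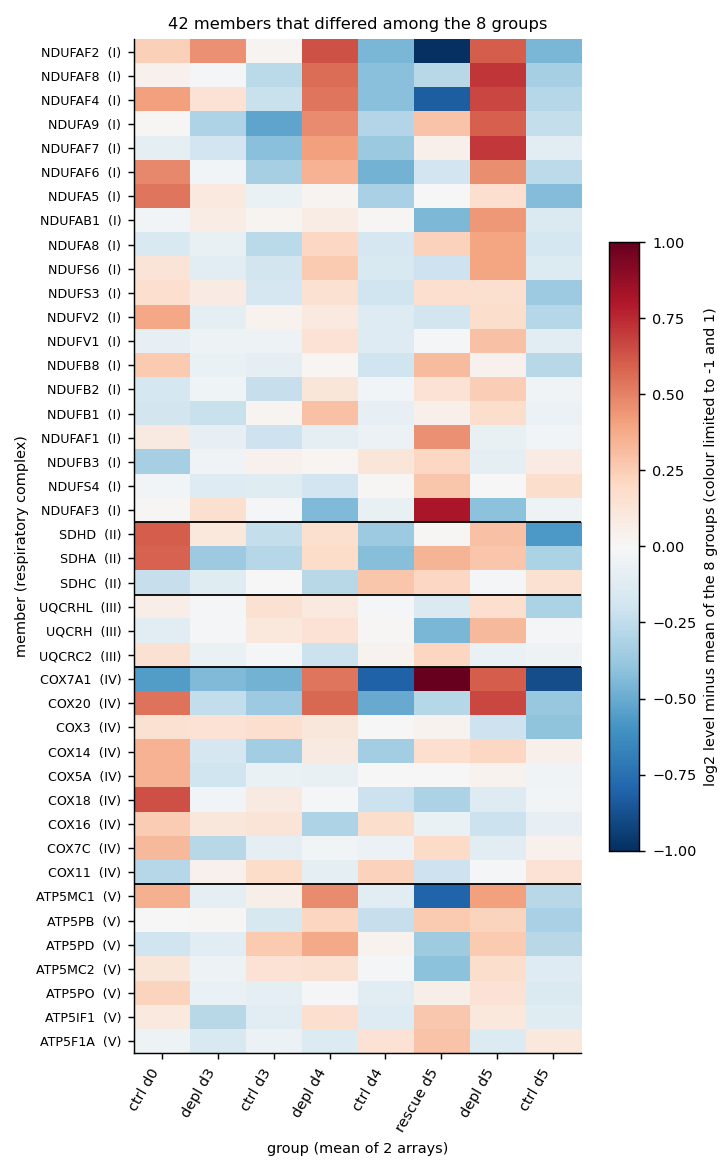
Each row is one of the 42 members that differed among the 8 groups, ordered by complex, and each column a group mean of 2 arrays. Colour gives the log2 level minus the member's mean over the 8 groups and is limited to -1 and 1. The rows of NDUFAF2, NDUFAF4, NDUFAF8 and COX20 are red in depleted cells on days 4 and 5 and blue in rescue cells on day 5, and COX7A1 is highest in rescue cells.

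During normal differentiation more members went down than up, and the same held for all genes. The share of members that fell was close to that of all genes. In control cells of day 3 against day 0, 6 members rose and 17 fell, where 13.2% of all genes rose and 14.6% fell. The count of calls was 15 without control day 3 replicate 2. On day 5 against day 0, 6 rose and 21 fell, where 15.9% and 18.1% of all genes did. With only the compared groups in the fit, 12 members were called on day 5 (11.9%, against 21.6% of all genes) and 6 on day 3 (5.94%, against 13.2%). The deepest falls on day 5 were those of SDHD, NDUFA5, COX20 and SDHA. The split depended on scaling. After each array was centred on its median, which lowered the median difference of all genes by 0.105 on day 5, 0 members rose and 35 fell on day 5 and 3 rose and 23 fell on day 3. After cyclic loess 11 rose and 17 fell on day 5, and 10 rose and 15 fell on day 3.

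On day 3 of differentiation depleted and control cells were close. NDUFAF2 alone was higher in depleted cells and 0 members were lower, where 1.79% of all genes were higher and 1.96% lower. That call was lost without either depleted day 3 array and without control day 3 replicate 2, and without control day 3 replicate 1 there were 3 calls. On day 4, 16 members were higher and 2 lower in depleted than in control cells, where 14.8% and 13.3% of all genes were. After cyclic loess the split was 16 and 5. On day 5, 25 members were higher and 0 lower in depleted cells, where 16.5% and 16% of all genes were. After cyclic loess the split was 22 and 4. These differences are between groups of the same day and not changes from day 0. With only the compared groups in the fit, 18 members were called on day 4 (17.8%, against 27.5% of all genes). On day 5 that fit called 18 (17.8%, against 27.8%). The median member difference on day 5 was 0.12 on the log2 scale, against 0.04 over all genes. At day 5, 15 of 44 complex I members were higher, 2 of 3 in complex II, 2 of 8 in complex III, 2 of 27 in complex IV and 4 of 19 in ATP synthase. Of the 16 members higher on day 4, 14 were also higher on day 5, which is 56.0% of the day 5 list. Both lists rest on different arrays of the same 2 lines, and the same overlap is not given over all genes.

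The depletion difference itself grew between day 3 and day 5. Tested as a difference of differences, it was higher on day 5 for 16 members and lower for 0, where 8.63% of all genes were higher and 9.26% lower. The largest gains were those of COX7A1 (1.46 on the log2 scale), COX20 (0.92), ATP5PD (0.92) and ATP5MC1 (0.84). Without single arrays the count was 8 (depleted day 3 replicate 1), 10 (depleted day 5 replicate 1), 7 (depleted day 5 replicate 2) and 10 (control day 5 replicate 2).

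Rescue cells differed from both other groups of day 5. They alone received doxycycline, so the drug and the GATA6 transgene cannot be told apart in these comparisons. Against depleted cells of day 5, 10 members were higher and 16 lower in rescue cells, where 21.9% of all genes were higher and 17.6% lower. Centred on the array medians, which lowered the median difference of all genes by 0.109, the split was 4 and 24. The total was 16 without either rescue array or without depleted day 5 replicate 1, and 16 with the rescue pair counted as 1 sample. Against control cells of day 5, 15 were higher and 5 lower in rescue cells, where 13.8% and 9.57% of all genes were. The split was 9 and 8 after median centring and 12 and 8 after cyclic loess. The total was 10 without rescue replicate 1, 8 without rescue replicate 2, 10 without control day 5 replicate 2, and 8 with the rescue pair as 1 sample. The comparisons within day 5 share arrays, so the same samples enter more than one of them.

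**Figure D2:**
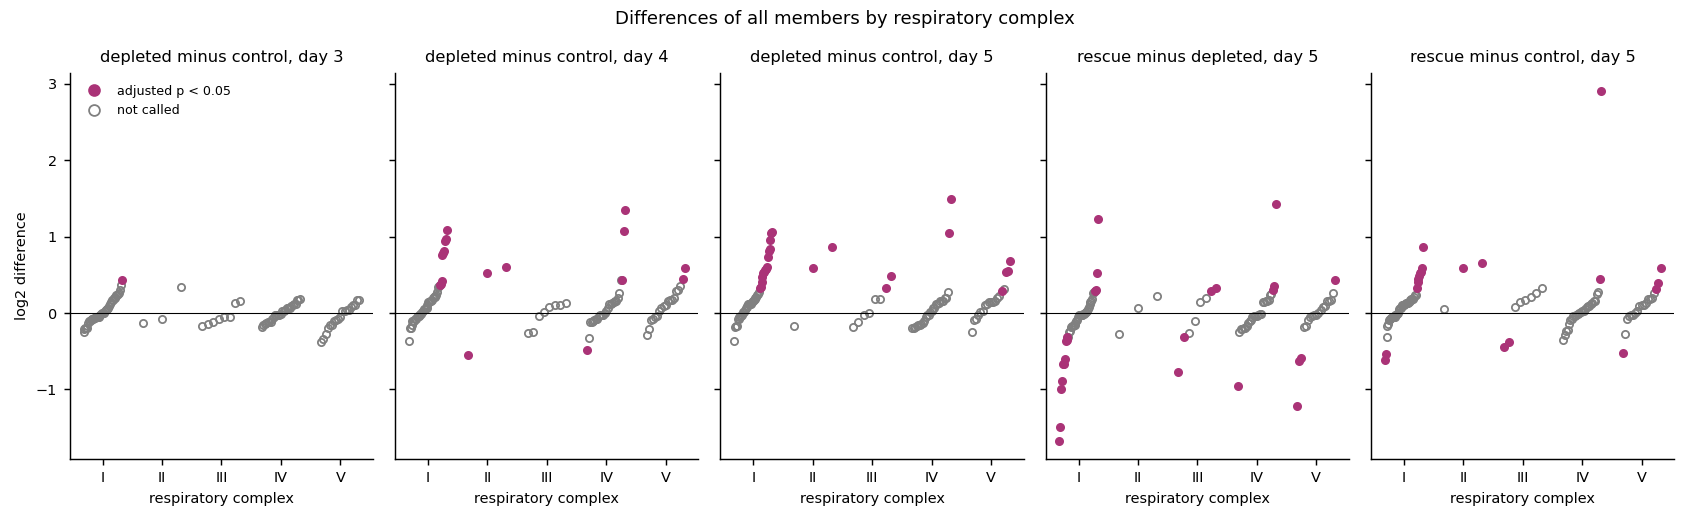
The log2 differences of all 101 members are shown by complex in 5 comparisons, with filled points at an adjusted p below 0.05 (limma) and open points not called. On day 3 the points lie near 0 with NDUFAF2 filled alone, and on days 4 and 5 the filled points of complex I lie above 0. COX7A1 is the highest point of complex IV in the 4 panels from day 4 on.

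Complex I assembly factors carried the widest changes of the first complex. NDUFAF2, a factor that binds a late intermediate of the complex, read 8.34 and 8.39 at day 0, then 8.60 and 8.57 in depleted against 8.23 and 8.09 in control cells on day 3, and 8.80 and 8.74 against 7.75 and 7.60 on day 4. On day 5 it read 7.06 and 7.07 in rescue cells, 8.72 and 8.75 in depleted cells and 7.70 and 7.65 in control cells. The groups of day 5 did not overlap, with rescue lowest and depleted highest. The depleted level was 1.06 ± 0.10 (SE, n = 2 each) above control on day 5 on the log2 scale, a 2.09-fold difference (adjusted p = 5.1e-06). The rescue level was below both, with a difference of -1.67 from depleted cells (adjusted p = 9.47e-08) and -0.61 from control cells (adjusted p = 0.000853).

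In the probe set used here, NDUFAF4, which acts early in building the quinone-reducing arm, had the same order of groups within day 5. It read 9.20 and 9.28 in depleted against 8.30 and 8.28 in control cells on day 4, and 7.92 and 7.84 in rescue, 9.37 and 9.37 in depleted and 8.52 and 8.32 in control cells on day 5. Rescue arrays were again the lowest and depleted arrays the highest. The difference was 0.95 ± 0.12 for depleted against control cells (adjusted p = 5.08e-05) and -1.49 ± 0.12 for rescue against depleted cells (SE, n = 2 each). Its other 2 probe sets gave -1.56 and -0.09 for rescue against depleted cells, and 0.92 and 0.17 for depleted against control cells. For rescue against control cells they gave -0.64 and 0.08. The size thus depends on the probe set, as does the sign of rescue against control. NDUFAF8, the partner of NDUFAF5, read 8.02 and 8.26 in rescue, 9.11 and 9.15 in depleted and 8.06 and 8.11 in control cells on day 5. Here rescue and control arrays overlapped, and depleted arrays lay 1.05 above control.

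NDUFAF7, a mitochondrial methyltransferase, read 7.87 and 7.89 in rescue, 8.53 and 8.55 in depleted and 7.69 and 7.76 in control cells, and NDUFAF6 read 6.89 and 6.95 in rescue, 7.38 and 7.77 in depleted and 6.82 and 6.87 in control cells. Both were higher in depleted than in control cells on days 4 and 5 and lower in rescue than in depleted cells. All 5 factors higher in depleted cells on day 4 (NDUFAF2, NDUFAF4, NDUFAF6, NDUFAF7 and NDUFAF8) were higher there on day 5 too. The remaining complex I factors did otherwise. NDUFAF3, which works with NDUFAF4, read 9.02 and 8.96 in rescue, 7.78 and 7.74 in depleted and 8.27 and 7.98 in control cells. Rescue cells were higher by 1.23 ± 0.15 than depleted and by 0.87 ± 0.15 than control cells. NDUFAF1, a factor of the membrane arm, was 0.53 higher in rescue than in depleted cells, and NDUFAF5, which modifies NDUFS7, lay between 6.70 and 7.21 on all 16 arrays and was called in none of the 9 comparisons made here.

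**Figure D3:**
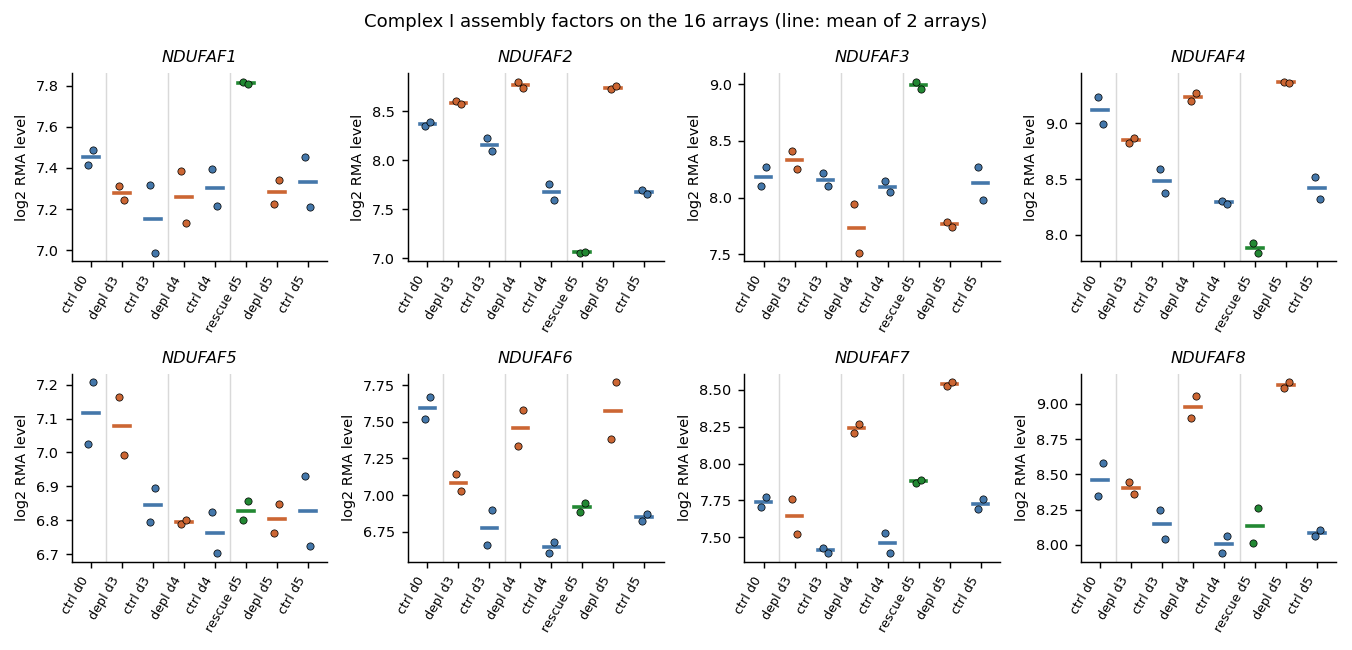
The log2 RMA level of NDUFAF1 to NDUFAF8 is drawn for each of the 16 arrays, with a line at the mean of each group of 2. In NDUFAF2, NDUFAF4, NDUFAF6, NDUFAF7 and NDUFAF8 the depleted points lie above the control points on days 4 and 5. In NDUFAF3 the 2 rescue points (9.02 and 8.96) are the highest of all 16.

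The promoter of NDUFAF2 is shown because the gene had the smallest p of the complex I members on day 5 and because it shares its start region with a neighbour. The 250 bases before its start, on the plus strand of chr5:60944955-60945204 (GRCh38.p14, RefSeq), hold 1 match to the SP1 letters GGGCGG, in capitals.
NDUFAF2: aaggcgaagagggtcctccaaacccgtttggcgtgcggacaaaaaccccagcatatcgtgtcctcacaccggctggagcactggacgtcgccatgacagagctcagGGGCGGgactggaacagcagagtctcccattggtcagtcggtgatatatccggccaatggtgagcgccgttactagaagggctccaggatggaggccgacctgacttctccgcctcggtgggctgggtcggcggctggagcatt
The start of ERCC8, on the other strand, lies 135 bases upstream, and that of CEBPZ lies 62 bases upstream of NDUFAF7. NDUFAF6 is not shown.

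Among the subunits of complex I, part of the set was higher in depleted than in control cells by smaller differences. NDUFA9, an accessory subunit near the quinone site, read 8.92 and 9.12 in depleted against 8.07 and 8.46 in control cells on day 4. Its day 5 levels were 8.90 and 8.77 in rescue, 9.16 and 9.13 in depleted and 8.36 and 8.27 in control cells. Depleted and rescue arrays both lay above control arrays, by 0.84 ± 0.13 (adjusted p = 0.000314) and 0.52 ± 0.13 (adjusted p = 0.0119). NDUFAB1, the mitochondrial acyl carrier protein, read 10.32 and 10.22 in rescue, 11.13 and 11.18 in depleted and 10.64 and 10.52 in control cells, and its rescue arrays were the lowest of all 16. NDUFS6, a zinc-binding subunit, was 0.53 higher in depleted than in control cells and 0.60 lower in rescue than in depleted cells. NDUFA5 fell by 0.97 in control cells from day 0, was 0.60 higher in depleted cells and was 0.44 higher in rescue than in control cells on day 5. NDUFB8 of the membrane arm read 10.55 and 10.52 in rescue, 10.21 and 10.31 in depleted and 9.94 and 9.93 in control cells, so that rescue arrays were highest.

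Of the 6 core subunits of complex I measured, 3 were higher in depleted than in control cells on day 5. These were NDUFV1, which takes electrons from NADH (0.41 ± 0.11), NDUFV2 (0.47 ± 0.12) and NDUFS3 (0.52 ± 0.14). The other probe set of NDUFS3 gave -0.02, so that call rests on 1 probe set. NDUFS1, NDUFS7 and NDUFS8 were not called, with differences of 0.11, 0.25 and 0.06. NDUFV1, NDUFV2 and NDUFS7 were lower in rescue than in depleted cells, by differences of -0.32, -0.36 and -0.35. NDUFS3 was still 0.53 higher in rescue than in control cells, where its other probe set gave 0.06 and was not called. On day 4 none of the 6 was called by limma.

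Complex II, which is also an enzyme of the tricarboxylic acid cycle, split. SDHA, the flavoprotein that oxidises succinate, read 8.59 and 8.55 at day 0, 7.60 and 7.62 in depleted against 7.76 and 7.61 in control cells on day 3, and 8.18 and 8.14 against 7.58 and 7.52 on day 4. On day 5 it read 8.37 and 8.26 in rescue, 8.24 and 8.25 in depleted and 7.68 and 7.64 in control cells. The control level fell by 0.88 by day 3 and was 0.91 below day 0 on day 5 (difference -0.91, adjusted p = 1.26e-05). Depleted cells shared the low level on day 3 and were 0.59 ± 0.10 above control cells on day 5 (adjusted p = 0.00051), and rescue cells were 0.65 ± 0.10 above control (adjusted p = 0.000479). Rescue and depleted arrays differed by 0.07 (adjusted p = 0.644). SDHA and SDHD have pseudogenes, whose signal cannot be told apart here. In depleted against control cells on day 4, 1 of the 2 other SDHA probe sets gave -0.23, and in control day 3 against day 0, 1 gave 0.08. For rescue against control cells on day 5 the 2 other probe sets gave 0.055 and 0.708, so that size depends on the probe set.

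SDHD, a membrane anchor, read 9.41 and 9.38 at day 0, 8.91 and 8.88 in depleted against 8.77 and 8.34 in control cells on day 3, and 8.91 and 8.98 against 8.31 and 8.55 on day 4. The day 5 levels were 8.80 and 8.80 in rescue, 9.06 and 9.10 in depleted and 8.29 and 8.15 in control cells. The groups of day 5 did not overlap. The difference was -1.17 ± 0.14 for control day 5 against day 0, 0.86 ± 0.14 for depleted against control and 0.58 ± 0.14 for rescue against control. All 4 of its other probe sets had the same sign in each of these 3. SDHC, the other membrane anchor, ran the other way. It read 9.16 and 9.14 in depleted against 9.63 and 9.77 in control cells on day 4, lower by 0.55 (difference -0.55, adjusted p = 0.000874, limma). SDHC was 0.39 higher in control cells on day 5 than at day 0. On day 5 depleted cells read 9.42 and 9.40 and control cells 9.60 and 9.56, a difference of -0.17 that was not called (adjusted p = 0.226).

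The SDHA and SDHD promoters are shown because these 2 genes fell together in control cells and because both hold the NRF1 letters GCGCANGCG, in capitals. The capitals of SDHD also mark the ETS letters CCGGAAGT on the reverse strand. Both are on the plus strand, at chr5:218070-218319 and chr11:112086623-112086872 (GRCh38.p14, RefSeq).
SDHA: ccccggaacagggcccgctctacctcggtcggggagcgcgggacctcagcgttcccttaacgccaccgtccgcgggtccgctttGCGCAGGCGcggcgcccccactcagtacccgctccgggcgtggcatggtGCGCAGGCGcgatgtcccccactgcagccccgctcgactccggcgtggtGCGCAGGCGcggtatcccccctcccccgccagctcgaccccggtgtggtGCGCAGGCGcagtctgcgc
SDHD: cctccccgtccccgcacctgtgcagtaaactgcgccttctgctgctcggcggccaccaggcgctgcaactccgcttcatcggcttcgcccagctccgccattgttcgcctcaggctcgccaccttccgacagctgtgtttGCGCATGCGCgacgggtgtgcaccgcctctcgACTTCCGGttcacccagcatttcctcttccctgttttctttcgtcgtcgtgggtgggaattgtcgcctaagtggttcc
SDHA has 4 NRF1 matches, beginning 166, 117, 68 and 19 bases before the start. SDHD has a palindromic stretch read as 2 overlapping matches, beginning 110 and 109 bases before the start, and 1 ETS match 78 bases before it.

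**Figure D4:**
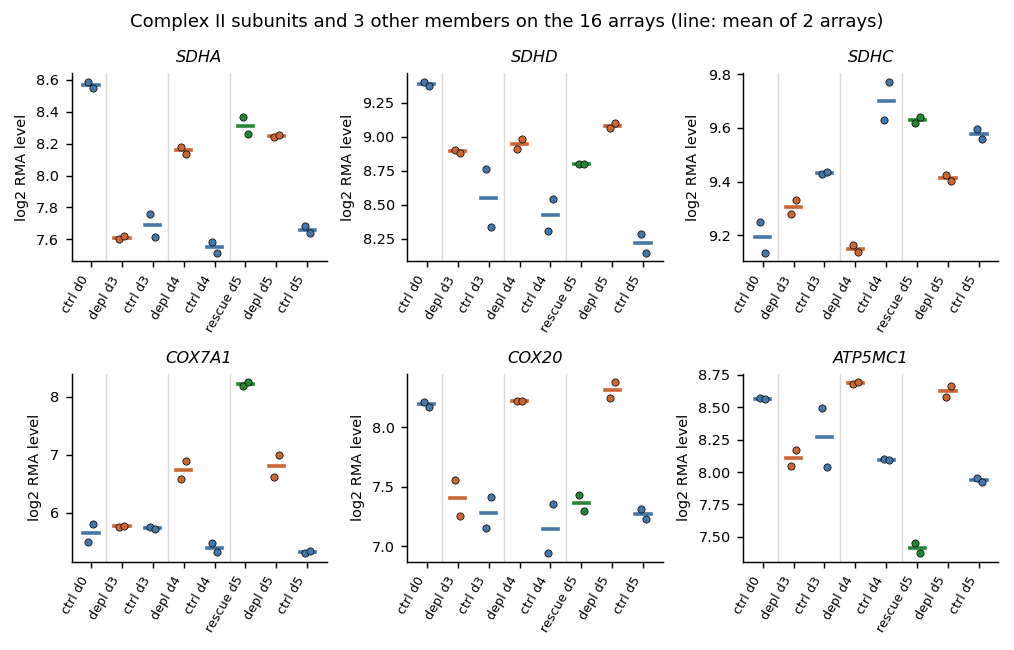
The log2 RMA level of SDHA, SDHD, SDHC, COX7A1, COX20 and ATP5MC1 is drawn for each of the 16 arrays, with a line at the mean of each group of 2 and a scale of its own for each gene. SDHA starts at 8.59 and 8.55 on day 0 and is at 7.68 and 7.64 in control cells on day 5. COX7A1 reaches 8.19 and 8.26 in rescue cells, and ATP5MC1 is lowest there.

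In complex III, 5 of the 8 members were called in at least 1 of the 9 comparisons, where 62.8% of all genes were. UQCRC1 and UQCRC2, its core proteins, differed by 0.18 and -0.02 between depleted and control cells on day 5 and were not called, and UQCRC2 was 0.28 higher in rescue than in depleted cells. UQCRH, the hinge protein that meets cytochrome c, read 11.16 and 11.15 in rescue, 11.93 and 11.93 in depleted and 11.60 and 11.60 in control cells. These groups did not overlap, and the rescue level was 0.78 ± 0.10 below depleted and 0.44 ± 0.10 below control (differences -0.78 and -0.44). The other UQCRH probe set gave -0.59 against depleted cells and -0.05 against control cells, the latter not called. UQCRHL, a near-identical retrocopy of UQCRH, read 9.88 and 9.87 in rescue, 10.17 and 10.22 in depleted and 9.69 and 9.73 in control cells, and signal of one cannot be separated from signal of the other. UQCR10 was 0.32 higher in rescue than in depleted cells, and UQCRB was 0.38 lower in rescue than in control cells (difference -0.38), where 1 of its 3 other probe sets gave 0.56.

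In complex IV the widest change belonged to COX7A1, known as the heart and muscle isoform of subunit 7A. It read 5.49 and 5.79 at day 0, 5.75 and 5.77 in depleted against 5.75 and 5.71 in control cells on day 3, and 6.58 and 6.90 against 5.47 and 5.31 on day 4. On day 5 it read 8.19 and 8.26 in rescue, 6.62 and 6.99 in depleted and 5.30 and 5.33 in control cells. The groups of day 5 were apart, with rescue highest. Depleted cells were 2.80-fold above control (1.49 ± 0.15 log2, adjusted p = 9.19e-06), and rescue cells were 2.68-fold above depleted (1.42 ± 0.15, adjusted p = 8.53e-06) and 7.51-fold above control cells (2.91 ± 0.15, adjusted p = 9.91e-08). It was the only member past the thresholds of the study's own methods in any of the 9 comparisons, in rescue against control. It has 1 probe set. Its partners COX7A2 and COX7A2L lay between 11.56 and 11.85 and between 9.31 and 9.53 on all arrays and were called in none of the 9 comparisons.

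Isoforms of other complex IV subunits did not show such a change. COX4I1, the widespread isoform of subunit 4, lay between 10.97 and 11.13 on all 16 arrays, with a range of group means of 0.14. COX4I2, the isoform known from lung and low oxygen, lay between 3.28 and 3.97, close to the lower quartile, and COX7B2 (1.52 to 1.86), COX8C (2.31 to 3.54) and the ATP synthase retrocopy ATP5MGL (2.33 to 3.21) lay at or below it, so no fold is given for them. COX6A1, COX6A2, COX6B2, COX7B and COX8A were called in none of the 9 comparisons, and COX6B1 only in control day 5 against day 0, where it was 0.33 higher. The structural subunits COX5A and COX7C were lower in control cells on day 5 than at day 0 by differences of -0.38 and -0.29. COX3, encoded in mitochondrial DNA, was 0.56 lower on day 5 than at day 0 in control cells (difference -0.56) and 0.44 higher in rescue than in control cells.

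Complex IV assembly factors were led by COX20, a chaperone of COX2. It read 8.22 and 8.17 at day 0, 7.55 and 7.25 in depleted against 7.15 and 7.41 in control cells on day 3, and 8.22 and 8.22 against 6.94 and 7.35 on day 4. Day 5 levels were 7.43 and 7.29 in rescue, 8.25 and 8.38 in depleted and 7.32 and 7.23 in control cells. Depleted arrays lay above all others of day 5, and rescue and control arrays overlapped. The difference was 1.04 ± 0.15 for depleted against control (adjusted p = 0.000157) and -0.95 ± 0.15 for rescue against depleted cells, and both other probe sets had the same sign and were called in each. COX14, which helps make COX1, was 0.70 lower on day 3 than at day 0 in control cells (difference -0.70) and 0.44 higher in depleted than in control cells on day 4. COX18, the membrane insertase for COX2, stayed low: it read 7.71 and 7.72 at day 0, 6.75 and 6.75 in rescue, 6.95 and 6.93 in depleted and 7.13 and 6.96 in control cells on day 5. Its 2 other probe sets gave smaller falls in control cells from day 0 to day 5 (-0.38 and -0.29), and neither was called. COX16 was 0.49 lower in depleted than in control cells on day 4 (difference -0.49), COX17, a copper chaperone, was 0.35 higher in rescue than in depleted cells, and COX10, COX15 and COX19 were called in none of the 9 comparisons.

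The start region of COX20 is shown as that of the complex IV factor that followed the depleted cells most widely. It lies on the plus strand of chr1:244835226-244835475 (GRCh38.p14, RefSeq) and holds 3 SP1 matches on either strand, in capitals. No entry for COX7A1 was found in the promoter table.
COX20: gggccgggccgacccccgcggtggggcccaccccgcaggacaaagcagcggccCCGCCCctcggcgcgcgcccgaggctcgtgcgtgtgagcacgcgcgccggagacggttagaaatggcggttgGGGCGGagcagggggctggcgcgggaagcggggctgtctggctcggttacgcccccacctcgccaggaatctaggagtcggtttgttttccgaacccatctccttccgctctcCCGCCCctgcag

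In ATP synthase the widest change was that of 1 of the 3 genes for the c ring subunit, whose mature proteins are the same. ATP5MC1 read 8.57 and 8.56 at day 0, 8.05 and 8.17 in depleted against 8.50 and 8.04 in control cells on day 3, and 8.68 and 8.70 against 8.10 and 8.09 on day 4. On day 5 it read 7.45 and 7.37 in rescue, 8.58 and 8.67 in depleted and 7.95 and 7.92 in control cells. These 3 groups were apart, with rescue lowest of all 16 arrays. The difference was 0.69 ± 0.13 for depleted against control (adjusted p = 0.00138), -1.21 ± 0.13 for rescue against depleted (adjusted p = 1.08e-05) and -0.53 ± 0.13 for rescue against control cells (adjusted p = 0.0121). ATP5MC2 was 0.59 lower in rescue than in depleted cells (difference -0.59), and ATP5MC3 was called in none of the 9 comparisons.

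In the catalytic head, ATP5F1A, the alpha subunit, read 12.36 and 12.37 in rescue, 11.95 and 11.92 in depleted and 12.23 and 12.14 in control cells, 0.43 higher in rescue than in depleted cells (adjusted p = 0.0051), while the depleted difference from control of -0.25 was not called. ATP5F1B, the catalytic beta subunit, was 0.40 lower in control cells on day 5 than at day 0 (difference -0.40) and 0.32 higher in rescue than in control cells. ATP5F1C, the rotating shaft, was 0.41 higher in control cells on day 5 than at day 0. In the peripheral stalk, ATP5PB read 11.83 and 11.78 in rescue, 11.68 and 11.86 in depleted and 11.25 and 11.19 in control cells, above control in both. ATP5PD read 10.22 and 10.23 in rescue, 10.86 and 10.84 in depleted and 10.44 and 10.17 in control cells, higher in depleted than in control and lower in rescue than in depleted cells. ATP5IF1, the inhibitor of ATP hydrolysis by the synthase, was 0.39 higher in rescue than in control cells.

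Of the 101 members, 55 were called in at least 1 of the 9 comparisons and 46 in none (limma), where 62.8% of all genes were called in at least 1. The 46 were 17 of complex I, 3 of complex III, 16 of complex IV and 10 of ATP synthase, and the median distance between their highest and lowest group means was 0.28. Among those not yet named were the ATP synthase subunits ATP5F1D, ATP5F1E, ATP5ME, ATP5MF, ATP5MG, ATP5MJ, ATP5MK and ATP5PF, the complex IV subunits COX5B and COX6C, the complex III subunits UQCR11 and UQCRQ, and 14 accessory subunits of complex I (NDUFA1, NDUFA2, NDUFA7, NDUFA10, NDUFA11, NDUFA12, NDUFA13, NDUFB4, NDUFB5, NDUFB6, NDUFB7, NDUFB9, NDUFC2 and NDUFV3). The other calls were small. Accessory subunit NDUFA8 was 0.57 higher in depleted than in control cells on day 5, NDUFC1 was 0.34 and the stalk subunit ATP5PO 0.29 higher, and NDUFB1 was 0.37 higher on day 4. In control cells of day 3, NDUFA6, NDUFB3, NDUFB10 and the copper chaperone COX11 were 0.35 to 0.47 above day 0 and NDUFB11 was 0.31 below it (difference -0.31). On day 5, NDUFA3 was 0.32 higher and NDUFS5 0.41 lower than at day 0 (difference -0.41). Other probe sets of COX11 ranged from -0.22 to 0.41 on day 3, and those of NDUFA3 from -0.19 to 0.36 on day 5. NDUFS4 was 0.29 higher in rescue than in depleted cells, and NDUFB2 was 0.42 higher in depleted cells of day 5 than at day 0.

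Depleted cells of day 5 were also set beside the undifferentiated cells, although the hairpin and time change together in that comparison. In depleted cells 14 members were higher and 6 lower than at day 0, where 8.80% and 9.71% of all genes were. The total was 12 without control day 0 replicate 1, 7 without depleted day 5 replicate 1 and 8 without depleted day 5 replicate 2. Median centring gave 8 higher and 10 lower, and cyclic loess 17 higher and 4 lower. COX7A1 (1.17), NDUFAF7 (0.80) and NDUFAF8 (0.67) were the highest above day 0, and COX18 the lowest below it (difference -0.77). The 2 other probe sets of COX18 gave -0.33 and -0.16, and neither was called. SDHA was 0.32 below day 0 (difference -0.32), but 1 of its 2 other probe sets gave 0.30 and neither was called with that sign. For NDUFAF7, 1 of 2 other probe sets gave -0.01. Of the 25 members higher in depleted than in control cells on day 5, 15 were among the 21 that had fallen in control cells since day 0. These lists share the control day 5 arrays, so that a low value there enters both. The same overlap is not given over all genes, so whether it is large for the members cannot be said.

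Cell type markers also differed among the groups of day 5. All 5 pluripotency markers were higher and all 6 endoderm markers lower in depleted than in control cells, and in rescue against depleted cells all 5 were lower and all 6 higher. The mean of 5 mesoderm markers was 6.31 and 6.34 in depleted against 4.59 and 5.20 in control cells, and 2 of 4 neuroectoderm markers lay below the lower quartile in every group. The part of these shifts in the members' differences was not tested.

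Other genes of the same machinery were described by lists. Of 32 assembly factors with names outside the rule, 14 were higher and 4 lower in depleted than in control cells on day 5, with a median of 0.27, where 16.5% of all genes were higher and 16% lower. Among them TMEM70, an ATP synthase factor, was 0.80 higher, UQCC3, a complex III factor, 0.77 higher and COA6, a complex IV copper factor, 0.84 higher, whereas COA5 was 1.14 lower (difference -1.14). Against depleted cells, 5 of the 32 were higher and 12 lower in rescue cells, where 21.9% of all genes were higher and 17.6% lower. Of 17 regulators of mitochondrial biogenesis, 7 were higher and 3 lower in depleted than in control cells on day 5. In rescue against depleted cells 2 were higher and 10 lower. TFB2M, a mitochondrial transcription factor, read 8.08 and 8.15 in rescue, 8.98 and 9.08 in depleted and 7.91 and 7.92 in control cells, and TWNK, the mitochondrial DNA helicase, read 6.55 and 6.57 in rescue, 7.51 and 7.52 in depleted and 6.42 and 6.19 in control cells. CYCS, cytochrome c itself, read 10.67 and 10.70 in rescue, 11.70 and 11.74 in depleted and 10.83 and 10.89 in control cells, with the depleted arrays highest of day 5. MYC read 7.19 and 7.21 in rescue, 10.10 and 10.14 in depleted and 8.53 and 8.46 in control cells.

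The tricarboxylic acid cycle showed no common direction, with 4 of 14 genes higher and 3 lower in depleted than in control cells on day 5. In rescue against control cells, 10 of 16 glucose breakdown genes and 9 of 14 oxygen-responsive genes were higher and 0 of either list lower (limma), where 13.8% of all genes were higher and 9.57% lower, with list medians of 0.41 and 0.82. The mean level of the oxygen-responsive list was 9.23 and 9.25 on the rescue arrays, 8.30 and 8.37 on the depleted and 8.37 and 8.54 on the control arrays of day 5. COX4I2 and COXFA4L2, which are known to answer to low oxygen, were not called in that comparison. COX4I2 lay close to the lower quartile of all genes, so its lack of a call says little. Among mitochondrially encoded genes outside the rule, ND1 read 9.55 and 9.52 in rescue, 10.69 and 10.41 in depleted and 10.08 and 10.47 in control cells, and ND4 was called in none of these 3 day 5 comparisons.

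Promoters of 83 of the 101 members were found in the RefSeq table, which holds 27305 promoters of 250 bases before to 50 bases after a start. On either strand, the NRF1 letters GCGCANGCG stood in 25 of the 83 (30.1%), against 11.4% of the 14425 promoters of genes on the arrays and 8.0% of all promoters. The ETS letters CCGGAAGT stood in 15.7% of member promoters, against 6.4% of those of measured genes and 4.4% of all. AAGATGG, the YY1 letters, stood in 19.3% of member promoters, against 6.5% of those of measured genes and 6.1% of all. In the 150 bases before the start alone the YY1 share was 3.6% of members, against 1.8% of measured genes and 2.1% of all. GGGCGG, the SP1 letters, stood in 56.6% of member promoters, against 59.7% of those of measured genes and 44.6% of all. The hypoxia letters ACGTG stood in 25.3% of member promoters, against 23.9% of those of measured genes and 21.6% of all. The GATA letters AGATAA stood in 8.4% of member promoters, against 7.6% of those of measured genes and 10.5% of all.

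The motif shares were also set beside the calls in depleted cells, with no test. Of the 22 promoters of members higher in depleted than in control cells on day 5, 7 (31.8%) held the NRF1 letters, against 18 of 61 (29.5%) of the others. The GATA letters stood in 3 of the 22 and 4 of the 61. Among the complex I factors higher in depleted cells, none of the promoters of NDUFAF2, NDUFAF4, NDUFAF7 and NDUFAF8 held the NRF1, ETS or GATA letters in this window. Another gene started on the opposite strand within 1000 bases upstream in 28 of 83 members (33.7%), against 18.9% of measured genes. In complex I this was so for 17 of 39 members and in complex IV for 3 of 22.

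**Figure D5:**
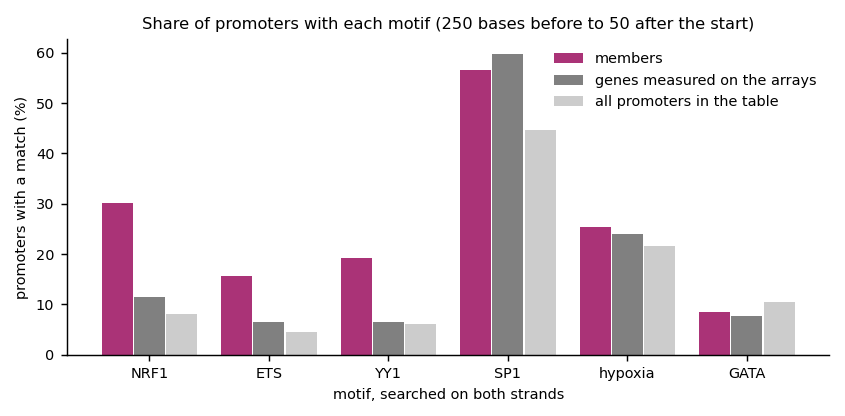
Bars give the percentage of promoters with each motif on either strand, for the 83 members with an entry, for the 14425 genes measured on the arrays and for all 27305 entries. The member bar is the highest of the 3 for NRF1 (30.1%), ETS (15.7%) and YY1 (19.3%), and for SP1 (56.6%) it lies below that of measured genes (59.7%).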

How the data were processed

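RNA was measured in 16 samples of H1 huES cells, each on 1 Affymetrix PrimeView array. The authors normalised the scans by RMA in Partek, whose version is not given in the sources used here, and the deposited table gives a log2 level for each probe set, not a ratio. It holds 49395 probe sets without missing values. The platform annotation names 1 gene for 44994 of them, several for 1832 and none for 2569, and the last 2 kinds and 102 control probe sets were left out. Of the single-gene probe sets, 44967 have an identifier in the RefSeq gene table, used for names only. Members have 237 probe sets, 38 members have 1, and 3 members lie below the 25th percentile of all genes.

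limma 3.58.1 (R 4.3.3) fitted each group's mean over all 18132 genes and 16 arrays, with p-values two-sided and adjusted over all genes by Benjamini-Hochberg at 0.05. The script was tested on simulated data. All groups share the spread because each has 2 arrays, described by the study as independent differentiations. The number of arrays limits the precision (median SE of a member's difference 0.11 on the log2 scale, 8 residual degrees of freedom). Per comparison, up to 8 called members with the largest rise and up to 8 with the largest fall whose arrays did not overlap were named (4 each for the difference of effects), along with SDHA to SDHD, core subunits and isoform families. Further members were named to account for the whole set. The members and the lists were chosen with earlier results of these data known. Motifs were searched by exact letters in GRCh38.p14 promoter sequences from RefSeq, and coordinates refer to that table and not to the arrays. Alternatives were cyclic loess, median centring, the mean of a gene's probe sets, a filter on dim genes, trended and robust moderation, fits on the compared groups only, the replicate block, the rescue arrays as 1 sample, the thresholds of the study's methods (a plain p of 0.01 or less together with a z-score past 3 in either direction), leaving out single arrays, and a shorter promoter window.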

Additional observations from a re-analysis of the deposited data

Results flagged for a closer look

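In 16 members the depletion difference (depleted minus control, log2) was larger on day 5 than on day 3 by limma's test of the difference itself. In the first 8 the day 3 difference was already at or above 0. COX7A1 had a difference of 1.49 on day 5 and 0.03 on day 3, a gain of 1.46, and COX20 had a difference of 1.04 on day 5 and 0.12 on day 3, a gain of 0.92. NDUFAF8 had a difference of 1.05 on day 5 and 0.26 on day 3, a gain of 0.79, and NDUFAF2 had a difference of 1.06 on day 5 and 0.43 on day 3, a gain of 0.64. NDUFA9 had a difference of 0.84 on day 5 and 0.21 on day 3, a gain of 0.62, and NDUFAF4 had a difference of 0.95 on day 5 and 0.37 on day 3, a gain of 0.58. NDUFAF7 had a difference of 0.81 on day 5 and 0.23 on day 3, a gain of 0.58, and NDUFS6 had a difference of 0.53 on day 5 and 0.07 on day 3, a gain of 0.46.

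In the other 8 the day 3 difference lay below 0. ATP5PD had a difference of 0.54 on day 5 and -0.38 on day 3, a gain of 0.92, and ATP5MC1 had a difference of 0.69 on day 5 and -0.16 on day 3, a gain of 0.84. SDHA had a difference of 0.59 on day 5 and -0.08 on day 3, a gain of 0.66, and UQCRHL had a difference of 0.48 on day 5 and -0.17 on day 3, a gain of 0.65. NDUFV2 had a difference of 0.47 on day 5 and -0.12 on day 3, a gain of 0.59, and NDUFC1 had a difference of 0.34 on day 5 and -0.20 on day 3, a gain of 0.54. NDUFB1 had a difference of 0.23 on day 5 and -0.24 on day 3, a gain of 0.48, and UQCRH had a difference of 0.33 on day 5 and -0.12 on day 3, a gain of 0.45. The adjusted p of the 16 ran from 0.00051 (COX7A1) to 0.0402 (NDUFB1). NDUFB1 was not called on day 5 itself. UQCRH and UQCRHL share sequence, so their signals are not independent. No group had enough arrays for a test of single arrays against their group.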

How the results depend on the processing

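With the thresholds of the study's methods, 0 members were called in any comparison but rescue against control, which kept 1. limma's own counts at an adjusted p below 0.05 are those of the report. Fits on the compared groups alone gave 6 calls for control day 3 against day 0 (23 in the report), 12 for control day 5 against day 0 (27), 0 for depleted against control on day 3 (1), 9 for the difference of effects (16) and 5 for depleted day 5 against day 0 (20), with fewer arrays to estimate the spread. They gave 18 calls for depleted against control on day 4 (18) and 18 on day 5 (25). For rescue they gave 30 calls against depleted (26) and 15 against control (20). In each of the 9 comparisons these fits called a smaller share of members than of all genes, as in 29.7% against 47.4% for rescue against depleted. Trended and robust moderation gave 32 calls for rescue against control (20) and 66 members differing among groups (42). With the rescue pair as 1 sample there were 8 calls against control and 16 against depleted cells (26). Leaving out 1 array gave 15 to 20 calls for control day 3 against day 0, 0 to 3 for depleted against control on day 3, 16 to 18 for rescue against depleted, 8 to 16 for rescue against control, 7 to 15 for the difference of effects and 7 to 15 for depleted day 5 against day 0. In the 150 bases before the start, the share of member promoters fell to 3.6% for YY1, 42.2% for SP1, 13.3% for hypoxia and 2.4% for GATA letters. A shorter window can only hold fewer matches, and the shares of measured genes there were 1.8%, 51.0%, 14.6% and 3.4%. The causes of the changes in calls were not tested. Of 157 calls of named members, 0 changed direction under any alternative run. Other than under the methods' thresholds, 17 of 25 calls held throughout for depleted against control on day 5, 13 of 18 on day 4, 15 of 26 for rescue against depleted, 6 of 20 for rescue against control, 12 of 27 for control day 5 against day 0, 6 of 23 for day 3, 7 of 16 for the difference of effects, 4 of 20 for depleted day 5 against day 0 and 0 of 1 for depleted against control on day 3.

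Replicate numbers did not pair the arrays, since deviations of equal number correlated between -0.068 and 0.253 over 28 pairs of groups, with 4 above 0.1. With the replicate block there were 22 calls for control day 3 against day 0 (23 without it), 24 for rescue against depleted (26), 19 for rescue against control (20) and 40 members differing among groups (42), and the other 6 comparisons kept their counts.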

Other observations

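Among the 9 carriers and ATP exchange genes outside the rule, SLC25A4, the muscle and heart isoform of the ADP/ATP carrier, read 7.76 and 7.76 in rescue, 8.40 and 8.61 in depleted and 7.50 and 7.43 in control cells on day 5, and 8.58 and 8.43 at day 0. SDHAF3 and SDHAF4, both assembly factors of complex II, went opposite ways in depleted against control cells on day 5, by 0.62 and -0.68.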
